A study of Mus musculus with 2 samples.

Results

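The genes described here are 7 genes of cardiac depolarization and impulse conduction, chosen by name: Scn10a and Scn4b of the sodium channels, Gja1 and Gja5 of the connexins, Hcn4 and Hcn2 of the pacemaker channels, and the anchoring protein gene Ank2. They stand among 25235 genes listed in the adult or the aged heart. 6 of the 7 were listed in both hearts, and 3 of them (Gja1, Gja5 and Ank2) had at least 20 allele-assigned reads in both. In the aged library, Ank2 was 1.57-fold lower than in the adult one and Gja1 was 1.39-fold higher, relative to all reads of each library. The reads of these 2 genes also divided differently between the parental alleles. The BL6 share of Ank2 was 0.541 in adult nuclei and 0.597 in aged nuclei, whereas that of Gja1 was 0.477 and 0.433. The sodium and pacemaker channel genes were near the limit of detection, with between 3 and 27 reads in a library.

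Nuclei of the heart were measured by single-nucleus RNA-seq in F1 females of a BL6 (C57BL/6J) mother and a CAST (CAST/EiJ) father. The adult heart was taken at 9 weeks and the aged heart at 78 weeks, with 1 library of each age. Where a read covers a base that distinguishes the strains (SNP), its parent of origin is known, and such reads were pooled by the authors over the nuclei that kept the BL6 X chromosome active. The values are therefore sums over all cell types of the heart, from nuclei of one X-inactivation state. Both libraries carry the same labels apart from age, and no treatment is given for either animal. One label gives the mother's strain with an Xist deletion in the heterozygous state, whereas the titles, the genotype label and the study's text give wild-type F1 animals. The deposited name of the aged table carries another number of weeks than its label, and the labelled age was used.

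An impulse in the heart starts in pacemaker cells, where hyperpolarization-activated channels of the Hcn family carry an inward current between beats. In working myocardium the upstroke of each action potential is carried by sodium channels, made of a pore-forming alpha subunit and accessory beta subunits. The current passes from cell to cell through gap junctions built of connexins at the intercalated disc. Ankyrins tether channels and transporters to the spectrin skeleton under the membrane, and loss of ankyrin-B function in patients is known for sinus node dysfunction and arrhythmia.

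The adult library held 9747535 reads and the aged library 5805807. Levels are given as reads per 1000000 SNP-overlapping reads of all genes (RPM), so that 1 read is worth 0.103 RPM in adult nuclei and 0.172 RPM in aged nuclei. The allelic ratio is the BL6 share of a gene's reads, and over all autosomal genes it was 0.534 in adult nuclei and 0.538 in aged nuclei. Intervals are at 95% and cover counting error only. As each age is 1 library, a ratio between them compares these libraries and not the ages, and no test was made. Adult nuclei and aged nuclei stand for the library of each age in what follows. Across the 12736 genes with at least 20 reads in both libraries, the median log2 ratio of RPM (aged over adult) was 0.22, with quartiles of -0.21 and 0.64, so most genes stood above 0 on this scale. The tissue label was checked against cardiomyocyte markers, 15 of 15 of which had at least 20 reads in both libraries. In pooled nuclei, fewer cells of a type and less RNA per cell cannot be told apart from these counts. Over all nuclei, whichever X was active, the paper reports a smaller share of cardiomyocytes and a larger share of fibroblasts in the aged heart.

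Connexin 43, the product of Gja1, forms most gap junctions between ventricular cardiomyocytes and is also made by other cells of the heart. The Gja1 locus spans 13.1 kb of chromosome 10 (GRCm38, chr10:56377300-56390419, + strand, protein coding). The adult library held 1292 BL6 and 1417 CAST reads of Gja1, 278 RPM (268 to 289). The aged library held 971 BL6 and 1274 CAST reads, 387 RPM (371 to 403). The aged level was the higher one and the intervals did not overlap, which was so for 81.0% of the 1201 genes with at least 1000 reads in both libraries. The ratio of aged over adult RPM was 1.39 (1.32 to 1.47), a log2 ratio of 0.48 against the median of 0.22 over all genes. Relative to that median, Gja1 remained higher by 0.26 on the log2 scale.

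Both alleles of Gja1 had a higher level in aged nuclei, but by unequal amounts. For BL6 the level was 133 RPM (125 to 140) in adult nuclei and 167 RPM (157 to 178) in aged nuclei, a ratio of 1.26 (1.16 to 1.37). For CAST it was 145 RPM (138 to 153) and 219 RPM (208 to 232), a ratio of 1.51 (1.40 to 1.63). The BL6 interval held the median ratio of 1.17 over all genes, whereas the CAST interval lay above that median. The allelic ratio of Gja1 was 0.477 (0.458 to 0.496) in adult nuclei and 0.433 (0.412 to 0.453) in aged nuclei, so CAST reads were in the majority in both. These intervals did not overlap each other, and the same held for 31.7% of the 1175 autosomal genes with at least 1000 reads in both libraries. Both intervals lay below the autosomal share of their library, as was the case for 26.3% of the same genes. The allelic ratio of Gja1 differed by -0.0444 (-0.0721 to -0.0166) between the libraries. A difference of this size or more in either direction was seen in 332 of those 1175 genes, whose median was 0.0266.

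Connexin 40, encoded by Gja5, is the gap junction protein of atrial cardiomyocytes, of the His-Purkinje fibres and of arterial endothelium. Its locus on chromosome 3 (chr3:97032402-97053634, + strand, protein coding) spans 21.2 kb. The adult library held 30 BL6 and 22 CAST reads of Gja5, 5.33 RPM (3.98 to 7.0). The aged library held 30 BL6 and 8 CAST reads, 6.55 RPM (4.63 to 8.98). The intervals overlapped, and the ratio of aged over adult RPM of 1.23 (0.786 to 1.90) did not separate the libraries. By allele, the ratio was 1.68 (0.978 to 2.88) for BL6 reads and 0.611 (0.235 to 1.42) for CAST reads, and both intervals held 1. The allelic ratio of Gja5 was 0.577 (0.432 to 0.713) in adult nuclei and 0.789 (0.627 to 0.904) in aged nuclei, a difference of 0.213 (0.0154 to 0.380). The interval of the difference narrowly left out 0, although the intervals of the allelic ratios themselves overlapped. The share of all genes with such a difference was not counted, and the reads are not known to be separate molecules. Of the members with at least 20 reads in both libraries, none in adult nuclei and only Gja5 in aged nuclei had an allelic ratio of at least 0.6 or at most 0.4. Among all autosomal genes with as many reads, 33.4% passed these limits in adult nuclei and 40.6% in aged nuclei. The 3' end of Gja5 is overlapped over 6979 bases by 4930573H18Rik, for which 6 adult and 8 aged reads were listed. It is not given in the sources used here whether reads were counted by strand, so reads in the shared stretch may belong to either gene.

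Ankyrin-B, the product of Ank2, anchors the sodium/calcium exchanger, the sodium pump and the inositol trisphosphate receptor in cardiomyocytes. Ank2 spans 579 kb of chromosome 3 (chr3:126921607-127500347, - strand, protein coding) and was by far the most read of the 7 genes, at rank 23 of all genes in adult nuclei and rank 37 in aged nuclei. The adult library held 13926 BL6 and 11792 CAST reads, 2638 RPM (2606 to 2671). The aged library held 5827 BL6 and 3938 CAST reads, 1682 RPM (1649 to 1716). The aged level was the lower one, with intervals far apart. The ratio of aged over adult RPM was 0.637 (0.623 to 0.653), a log2 ratio of -0.65, and it was -0.87 relative to the median of all genes. Of the 3 members with at least 20 reads in both libraries, 1 (Ank2) was at least 1.5-fold lower in aged nuclei and 0 were at least 1.5-fold higher. Across all genes with as many reads, 11.8% were lower and 28.0% higher by this fold. Ank2 no longer passed the fold when reads were scaled to the summed cardiomyocyte markers, with a log2 ratio of -0.55. That sum was lower in aged nuclei, with Ttn alone at 11849 and 6872 RPM. The median log2 ratio of the 15 markers was nevertheless 0.29.

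The lower level of Ank2 held for both alleles and was larger for CAST. On the BL6 allele the level was 1429 RPM (1405 to 1453) in adult nuclei and 1004 RPM (978 to 1030) in aged nuclei, 1.42-fold lower. On the CAST allele it was 1210 RPM (1188 to 1232) and 678 RPM (657 to 700), 1.78-fold lower. The allelic ratio of Ank2 was 0.541 (0.535 to 0.548) in adult nuclei, near the autosomal share of 0.534, which lay just below the interval. It was 0.597 (0.587 to 0.606) in aged nuclei, above the autosomal share of 0.538. This difference of 0.0552 (0.0437 to 0.0667) was opposite in direction to that of Gja1. The intervals of the allelic ratio of Ank2 did not overlap, as in 31.7% of the genes of this depth. A difference in allelic ratio of at least 0.05 in either direction was seen in 21.4% of autosomal genes with at least 1000 reads in both libraries, and one at least as large as that of Ank2 in 210 of the 1175.

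3 listed loci of predicted genes lie inside Ank2, and their reads may also be counted for it: Gm35535, LOC100862268 and LOC108168899. Together they held 995 reads in adult nuclei and 466 in aged nuclei, an amount equal to 3.87% and 4.77% of the Ank2 reads. Gm35535 (chr3:127466244-127470787) had 211 BL6 and 364 CAST reads in adult nuclei and 72 BL6 and 194 CAST reads in aged nuclei. Its allelic ratio of 0.367 (0.327 to 0.408) and 0.271 (0.218 to 0.328) lay on the other side of the autosomal share from Ank2. On the assumption that Ank2 includes all reads of the 3 loci, these reads were taken off. Ank2 then had an allelic ratio of 0.545 in adult nuclei and 0.608 in aged nuclei, at levels of 2536 and 1602 RPM. The next listed gene beyond the 3' end of Ank2, Camk2d, encodes a calcium/calmodulin-dependent kinase subunit and lies 75.3 kb away. Camk2d had an allelic ratio of 0.538 in both libraries and a ratio of aged over adult RPM of 0.811. On the other side, 36.4 kb away, Larp7 had 110 and 50 reads and a ratio of 0.763 (0.535 to 1.08).

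The sequence before the transcription start was read for the 3 genes whose alleles could be compared in both libraries, because T-box, NK2 and GATA factors are known regulators of conduction genes. The sequences are from RefSeq (GRCm38.p6) and cover the 250 bases before the start on the strand of the gene, 5′ to 3′. They lie at chr10:56377050-56377299 (+) for Gja1, chr3:97032152-97032401 (+) for Gja5 and chr3:127499116-127499365 (-) for Ank2. The reference genome is of the BL6 strain, so these are the bases of the BL6 allele, and the bases of the CAST allele were not analysed here. Of the 4 starts listed for Ank2 the one farthest upstream is shown, which lies inside the locus as the authors annotated it. Capitals mark the matches to 4 short motifs.
Gja1: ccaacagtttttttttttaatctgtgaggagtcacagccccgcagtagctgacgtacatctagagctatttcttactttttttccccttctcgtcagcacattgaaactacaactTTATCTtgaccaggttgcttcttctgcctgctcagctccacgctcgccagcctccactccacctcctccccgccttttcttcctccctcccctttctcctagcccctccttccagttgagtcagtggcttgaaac
Gja5: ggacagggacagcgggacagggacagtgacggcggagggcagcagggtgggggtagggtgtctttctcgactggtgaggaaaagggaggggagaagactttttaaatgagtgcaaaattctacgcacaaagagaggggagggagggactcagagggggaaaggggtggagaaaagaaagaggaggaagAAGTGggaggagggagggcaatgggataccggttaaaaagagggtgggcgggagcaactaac
Ank2: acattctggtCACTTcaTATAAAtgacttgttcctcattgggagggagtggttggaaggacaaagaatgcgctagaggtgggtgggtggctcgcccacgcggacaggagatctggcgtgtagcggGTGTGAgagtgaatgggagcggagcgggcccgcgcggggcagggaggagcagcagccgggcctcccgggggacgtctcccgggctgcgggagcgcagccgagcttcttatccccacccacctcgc

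The TATA box was searched as TATAAA on the strand of the gene. The T-box half-site was searched on either strand as TCACAC. The NK2 site was likewise searched as AAGTG. For the GATA site the letters were AGATAA, again on either strand. In the Gja1 window the only match was to the GATA site, its first base 135 bases before the start. The Gja5 window held an NK2 site at 62 bases. The Ank2 window held an NK2 site at 240 bases, TATAAA at 233 bases and a T-box half-site at 125 bases. No match overlapped another. The Ank2 window was richer in CpG, with 19 against 6 in Gja1 and 7 in Gja5. Among 32851 promoter windows of the same length, 7.59% held TATAAA, 12.3% the T-box half-site, 40.7% the NK2 site and 9.99% the GATA site. A match is a description of the letters and was not tested as a binding site.

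Hcn4 encodes the main pacemaker channel of the sinus node, and Hcn2 a faster family member found in sinus node and working myocardium. Hcn4 lies on chromosome 9 (chr9:58823512-58860955, + strand) and Hcn2 on chromosome 10 (chr10:79716634-79736108, + strand). Hcn4 had 4 BL6 reads and 1 CAST read in adult nuclei and 1 BL6 and 3 CAST reads in aged nuclei. These are levels of 0.513 RPM (0.167 to 1.2) and 0.689 RPM (0.188 to 1.76), and a difference was not detectable at this depth. For Hcn4 the allelic ratio was 0.8 (0.284 to 0.995) and 0.25 (0.00631 to 0.806), with intervals that overlapped widely. Hcn2 had 22 BL6 and 5 CAST reads in adult nuclei, 2.77 RPM (1.83 to 4.03). It had 5 BL6 and 2 CAST reads in aged nuclei, 1.21 RPM (0.485 to 2.48). The adult level was the higher one, but the ratio of adult over aged RPM of 2.30 had an interval from 0.976 to 6.25 that held 1. For Hcn2 the allelic ratio was 0.815 (0.619 to 0.937) in adult nuclei, with an interval above the autosomal share. In the aged library it was 0.714 (0.290 to 0.963), which did not separate it from that share. Polrmt, the mitochondrial RNA polymerase gene, lies within 0.008 kb of the end of Hcn2 and had 143 and 209 reads, 2.45-fold higher in aged nuclei. The ratio of aged over adult RPM was thus below 1 for Hcn2 and above 1 for Polrmt.

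Scn10a encodes Nav1.8, a sodium channel of sensory and intracardiac neurons. Scn4b encodes a beta subunit of cardiac and neuronal sodium channels. Both lie on chromosome 9 (Scn10a at chr9:119608456-119719322, - strand, and Scn4b at chr9:45139042-45154061, + strand). Scn10a had 9 BL6 reads and 0 CAST reads in adult nuclei, 0.923 RPM (0.422 to 1.75). It had 1 BL6 and 6 CAST reads in aged nuclei, 1.21 RPM (0.485 to 2.48). The levels could not be told apart, with a ratio of aged over adult RPM of 1.31 (0.413 to 3.94). The alleles, however, were on opposite sides. The allelic ratio was 1 (0.664 to 1) in adult nuclei and 0.143 (0.00361 to 0.579) in aged nuclei, and these intervals did not overlap. Among 811 autosomal genes with 5 to 10 reads in both libraries, 0.863% (7 genes) had intervals that did not overlap, and in a wider class of 5 to 19 reads it was 33 of 2202 genes. With 9 and 7 reads, and reads that are not known to be separate molecules, the allelic ratio of Scn10a rests on very few events. Scn4b had 3 BL6 reads and 0 CAST reads in adult nuclei, 0.308 RPM (0.0635 to 0.899), and had no row in the aged table. No ratio was therefore formed for Scn4b.

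**Figure D1:**
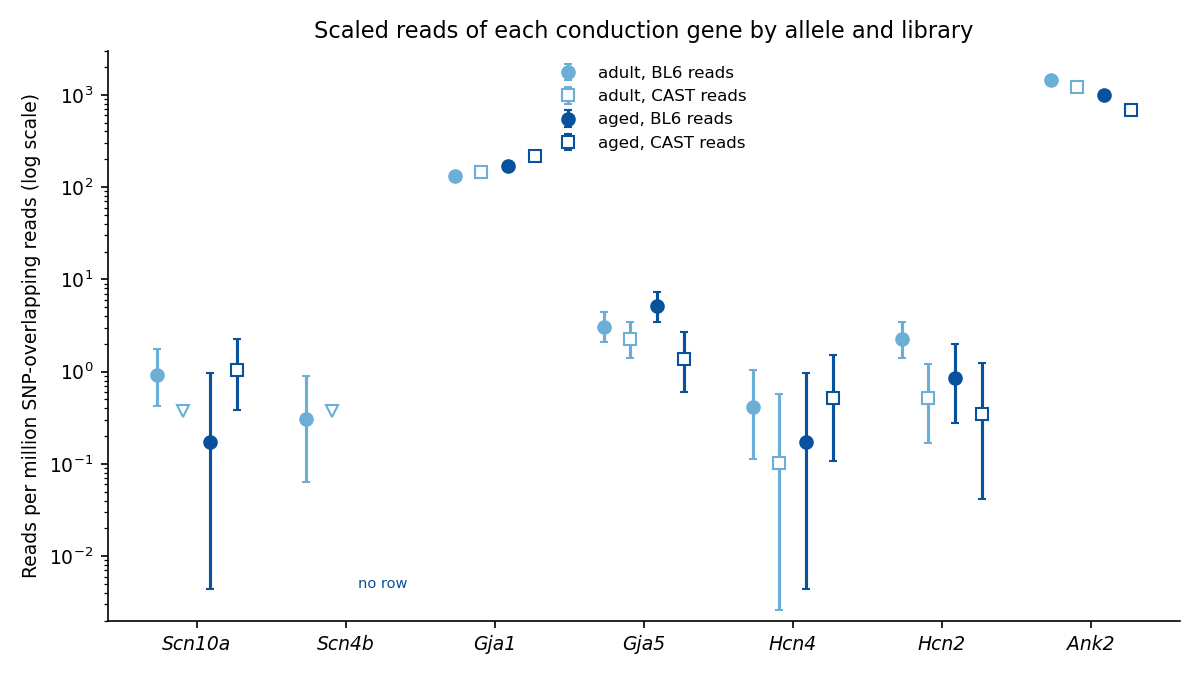
RPM (log scale) of the 7 genes, by allele (filled circles BL6, open squares CAST) and library (light blue adult, dark blue aged), with exact 95% intervals; open triangles are the upper limits of alleles with 0 reads. Ank2 (2638 RPM adult, 1682 RPM aged, both alleles summed) and Gja1 (278 and 387 RPM) stand far above the other genes, which stay under 10 RPM.

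Per kb of locus, the order of the 7 genes differed from that of their reads. Gja1 led with 21.2 RPM per kb in adult nuclei and 29.5 RPM per kb in aged nuclei, followed by Ank2 with 4.56 and 2.91 RPM per kb. Gja5 was at 0.251 and 0.308 RPM per kb, and Hcn2 at 0.142 and 0.0619 RPM per kb. Scn4b (0.0205 RPM per kb, adult), Hcn4 (0.0137 and 0.0184) and Scn10a (0.00833 and 0.0109) formed the end of the order, and their intervals overlapped one another. The intervals of Gja5 and Hcn2 overlapped in adult but not in aged nuclei, and all steps above Gja5 were far larger than the counting error. The number of SNPs per locus is not known, so that a level per kb is only a rough scale between genes.

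**Figure D2:**
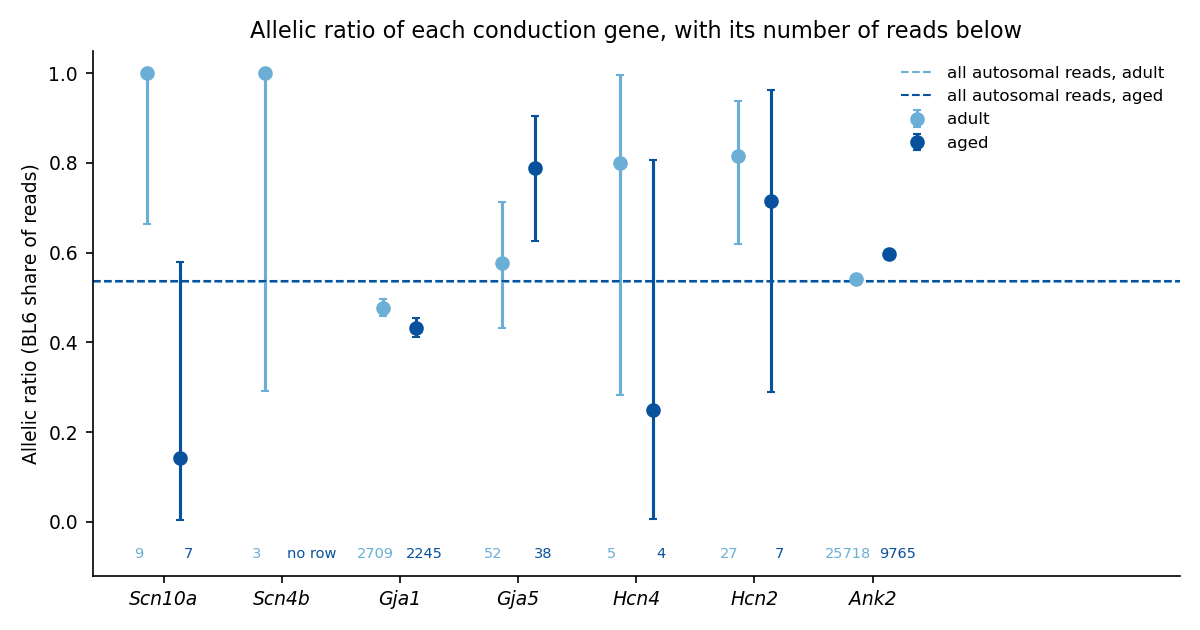
Allelic ratio (BL6 share of reads, 0 to 1) of the 7 genes in the adult (light blue) and aged (dark blue) library, with exact 95% intervals and the number of reads under each point; the dashed lines, which nearly coincide, are the autosomal shares of 0.534 and 0.538. Gja1 lies below the lines in both libraries and Ank2 above them, narrowly so in the adult one, whereas the intervals of the genes with few reads are wide.

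The ratio between the libraries varied with the length of the locus across all genes, and Ank2 has a long and Gja1 a short locus. Genes under 10 kb had a median log2 ratio of RPM (aged over adult) of 0.46 (2313 genes with at least 20 reads in both), and those of 10 to 30 kb, the class of Gja1 and Gja5, one of 0.26 (4278 genes). The median was 0.17 for 30 to 100 kb (3992 genes), 0.02 for 100 to 300 kb (1648 genes) and -0.11 for 300 kb or more (505 genes), the class of Ank2. The Gja1 value of 0.48 was reached or passed by 36.6% of its class. The Ank2 value of -0.65 was reached or passed downwards by 126 of the 505 genes of its class, and by 46 of the 221 genes (20.8%) of its class with at least 1000 reads in both libraries. In the class of Ank2, 27.9% of genes were at least 1.5-fold lower, against 11.8% of all genes. The part of locus length in the values of Ank2 and Gja1 was not tested.

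**Figure D3:**
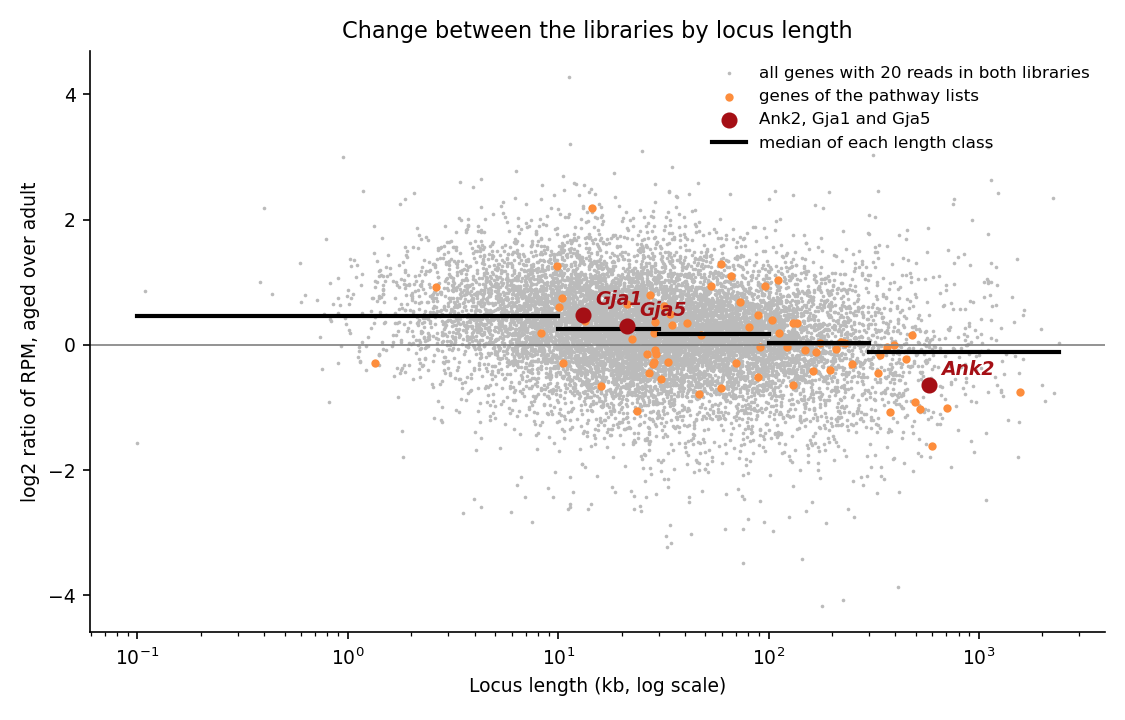
Log2 ratio of RPM (aged over adult) against the length of the locus (kb, log scale) for the 12736 genes with at least 20 reads in both libraries (grey points; genes of the conduction lists in orange), with Ank2, Gja1 and Gja5 in dark red and the median of each length class drawn as a line. The class median falls from 0.46 under 10 kb to -0.11 from 300 kb, with Gja1 (0.48) and Ank2 (-0.65) on either side of the median of all genes.

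Markers of other cell types also differed between the libraries. Of all genes with at least 20 reads in both, 28.0% were at least 1.5-fold higher in aged nuclei and 11.8% lower. The summed level of the cardiomyocyte list was 34146 RPM in adult nuclei and 31826 RPM in aged nuclei, with 2 of 15 markers at least 1.5-fold higher and 2 lower. Beside the higher level of Gja1, the summed level of fibroblast markers was 1777 and 2540 RPM (7 of 10 markers with at least 20 reads higher, 1 lower) and that of smooth muscle markers 100 and 303 RPM (4 of 4 higher). Beside Gja5, endothelial markers were at 1054 and 1582 RPM (6 of 11 higher, 0 lower), while arterial endothelial markers were at 1382 and 1258 RPM (4 of 7 higher, 0 lower). The arterial sum was mostly Nebl and Mecom, and without them, a choice made after their values were seen, it was 66.8 and 103 RPM over 7 listed genes, with Hey1 not listed in either library. Atrial markers were at 322 and 283 RPM (0 of 6 higher, 1 lower). The median log2 ratio of the 6 was -0.23. Bmp10, an atrial growth factor gene, had 29 reads in adult nuclei and 1 in aged nuclei, under the minimum of 20 reads. On the same list, the ratio of aged over adult RPM was 1.42 (1.23 to 1.64) for Dkk3 and 1.23 (0.839 to 1.80) for Stard10. Kcna5 was not listed in the adult and had 1 read in the aged library. The part of these cell types in the values of Gja1, Gja5 and Ank2 was not tested.

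Ventricular markers (5614 and 6536 RPM, 5 of 7 higher, 1 lower), pericyte markers (124 and 245 RPM, 4 of 5 higher, Kcnj8 not listed) and macrophage markers (332 and 537 RPM, 4 of 7 higher) were at a higher sum in aged nuclei. Schwann cell markers were at 199 and 239 RPM (0 of 4 past the fold) and epicardial markers at 49.2 and 11.7 RPM (1 of 1 lower). These counts stand beside the same 28.0% higher and 11.8% lower among all genes.

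The loci next to the remaining members were mostly lowly read. Beside Gja1 lie Tbc1d32 (148 kb away, 976 and 278 reads, ratio of aged over adult RPM 0.478) and Gm36595 (8 and 4 reads), so that the higher level of Gja1 was not shared by its neighbour Tbc1d32. Beside Gja5, Gpr89 had 18 and 7 reads and Acp6 24 and 7. Beside Hcn4, the guidance receptor gene Neo1 (13.7 kb away) had 2877 and 624 reads and a ratio of 0.364 (0.333 to 0.397), and Rec114 had 152 and 196 reads and a ratio of 2.16. Beside Hcn2, Bsg had 283 and 236 reads and a ratio of 1.40. Gm10684 and Tmprss4 beside Scn4b and Gm33701 beside Scn10a had 8 reads or fewer in either library.

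The genes closest to Gja1 and Ank2 in their allele-resolved pattern were sought among the autosomal genes with at least 500 reads in both libraries, by the distance between 4 centred log2 RPM values (each allele in each library). Of 2388 genes compared, the nearest to Gja1 were Ubap2l (distance 0.0511, ratio of aged over adult RPM 1.38, allelic ratio 0.487 and 0.439) and Kirrel (distance 0.0608, ratio 1.44, allelic ratio 0.472 and 0.436). 7 genes lay within a distance of 0.1 of Gja1. The nearest to Ank2 were Wwp1 (distance 0.0913, ratio 0.633, allelic ratio 0.555 and 0.613) and Phf14 (distance 0.105, ratio 0.653, allelic ratio 0.547 and 0.575), with 1 gene within 0.1. These distances are descriptions over 2 libraries.

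With related channels, partners, junction proteins and regulators, 8 lists of the conduction machinery hold 113 genes, 106 of which had a row in at least one library. Among these, 73 held at least 20 reads in each library. Of the 73, 14 were at least 1.5-fold higher and 12 at least 1.5-fold lower in aged nuclei, beside 28.0% and 11.8% of all genes. Their median ratio of RPM was 0.998, against 1.17 over all genes. Scaled to the median of all genes, the counts were 8 higher and 18 lower, so that the split between the directions depends on the scaling. Of the 13 list genes with loci of 300 kb or more, Ank2 among them, 7 were lower and 0 higher. Their median log2 ratio of -0.65 is the value of Ank2 itself. Among all 505 genes of that length with as many reads, 27.9% were lower. The share at least 1.5-fold higher was not counted for that length, but 22.0% had at least the log2 ratio of Gja1 (0.48). Of the other 60 list genes, 5 were lower and 14 higher, with a median of 0.17, beside 11.8% lower and 28.0% higher among all genes of any length.

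Among the pore-forming sodium channel subunits, 3 of 10 had enough reads, of which 2 were higher and 0 lower. Scn3a was 2.06-fold higher (1.43 to 2.96), with 58 and 71 reads. Scn7a, a sodium-sensing family member, had 794 and 537 reads and a ratio of 1.14. Of 4 beta subunits, 2 had enough reads and 0 passed the fold, with Scn3b at 63 and 40 reads and a ratio of 1.07. Among 14 channel partners, 12 had enough reads, of which 1 was higher and 3 lower. The 3 are fibroblast growth factor homologous factors, which bind sodium channels: Fgf12 was at 1381 and 449 RPM (3.07-fold lower), Fgf14 at 370 and 185 RPM (2.0-fold lower) and the X-linked Fgf13 at 3758 and 1840 RPM (2.04-fold lower). Their loci span 595, 704 and 523 kb, in the length class where 27.9% of all genes were lower. The allelic ratio of Fgf13 was 0.997 and 0.995, in nuclei that were chosen for an active BL6 X.

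Among 20 connexin genes, 5 had enough reads, of which 1 was higher and 1 lower. Gja4 (connexin 37, of arterial endothelium) was 1.90-fold higher (1.2 to 3.02) with 38 and 43 reads, and Gja3 was 2.08-fold lower with 185 and 53 reads. Gjc1 (connexin 45, of the nodes) had 598 and 436 reads and a ratio of 1.22 (1.08 to 1.39), beside the 1.39 of Gja1 and the 1.23 of Gja5. The X-linked Gja6 and Gjb1 had 6 and 1 reads in adult nuclei. Of 12 pacemaker and T-type calcium channel genes, 7 had enough reads, of which 1 was higher and 2 lower. Popdc2 was 1.58-fold lower, with an interval of the ratio from 0.387 to just above 1. Cacna1h, a T-type channel, was 2.44-fold higher with 22 and 32 reads, and Cacna1d had a ratio of 0.859.

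Around Ank2, 15 of 15 genes for ankyrins, spectrins and their cargo had enough reads, 3 of them higher and 3 lower. Ank3 (ankyrin-G, a relative of ankyrin-B, with a locus of 494 kb) was 1.87-fold lower, at 793 and 423 RPM. Its allelic ratio was 0.552 and 0.544. The beta spectrin gene Sptb was 1.55-fold lower and the alpha spectrin gene Sptan1 2.15-fold higher, at 171 and 368 RPM. Atp1b1 of the sodium pump was 1.57-fold higher. Ehd3, an ankyrin-B partner in membrane traffic, was 1.74-fold higher with 27 and 28 reads, with an interval from 0.989 to 3.07. The most read cargo and skeleton genes, Slc8a1 (the sodium/calcium exchanger, ratio 0.976) and Sptbn1 (ratio 0.925), differed little. Of 17 intercalated disc genes, 16 had enough reads, with 1 higher and 3 lower. The lower ones were Dsg2 (1.73-fold), Ctnna3 (1.69-fold, 5271 and 3122 RPM, with a locus of 1574 kb) and Pkp2 (1.61-fold), all of desmosomes or the area composita. Xirp1 was 2.40-fold higher, and N-cadherin (Cdh2) had a ratio of 1.03. Among 21 regulators of the conduction system, 13 had enough reads, with 5 higher and 0 lower. These were Tbx3, a repressor of working myocardial genes in the nodes (21 and 57 reads, 4.56-fold, 2.72 to 7.91), Tbx20 (1.91-fold), Hey2 (1.68-fold), Gata4 (1.61-fold) and Irx4 (1.53-fold, with an interval from 0.790 to 2.93).

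**Figure D4:**
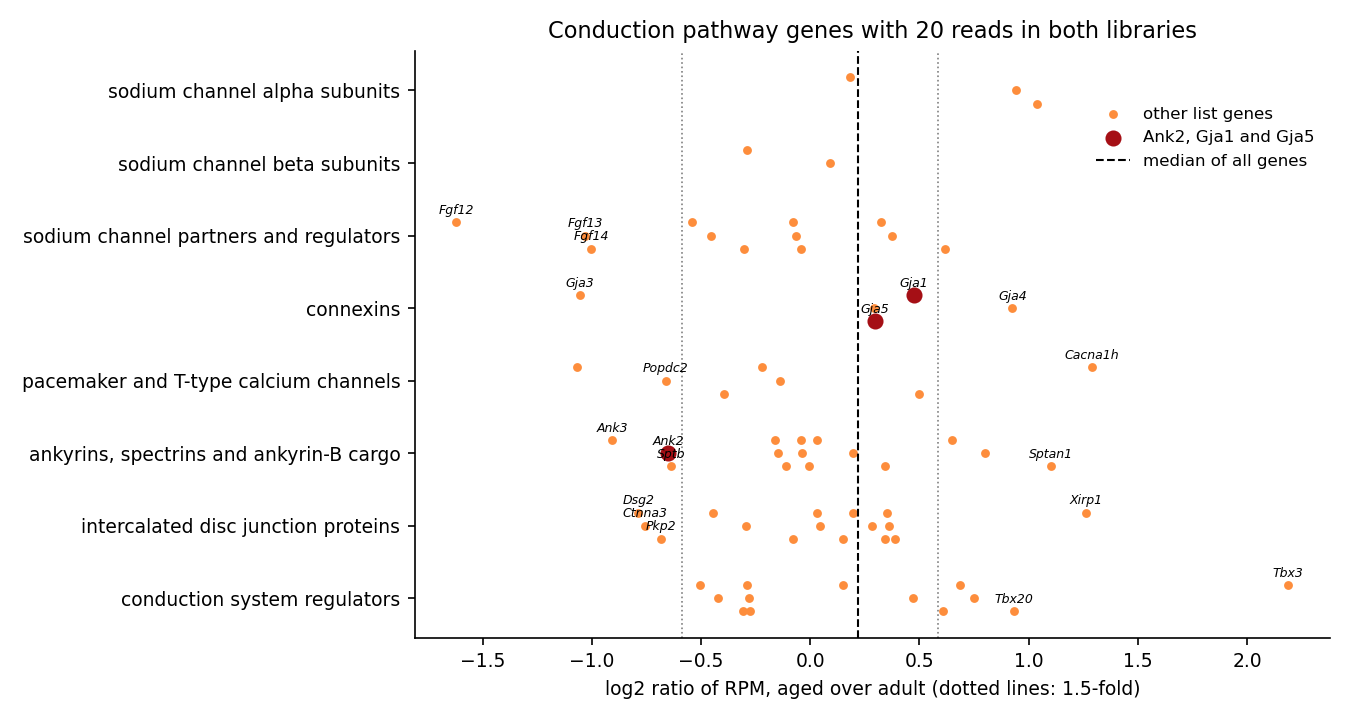
Log2 ratio of RPM (aged over adult) of the 73 genes of the 8 lists with at least 20 reads in both libraries, 1 row of points per list; the dashed line is the median of all genes (0.22), the dotted lines mark a fold of 1.5 in either direction, Ank2, Gja1 and Gja5 are drawn large, and some of the genes named in the text carry their symbol. Ank2 lies past the lower dotted line together with Ank3 and Sptb, whereas Gja1 and Gja5 lie between the dotted lines.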

How the data were processed

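The authors aligned the snRNA-seq reads to GRCm38 with Cell Ranger 7.1.0, split the alignments by nucleus with sinto, pooled the nuclei with an active BL6 X chromosome and ran Allelome.PRO2 over RefSeq genes with SNPs between BL6 and CAST. The deposited values are raw counts of SNP-overlapping reads per locus and allele, the allelic ratio as a fraction rounded by the authors to 2 decimals, and a deposited score that was not used. Duplicate removal and counting by strand are not given in the sources used here, and intervals cover counting error only. Background RNA was removed by the authors from their expression matrices with CellBender. The allele pools were split from the Cell Ranger alignments instead, for which no such correction is described. Doublets were removed by the authors from their expression matrices with DoubletFinder, but the sources used here do not say if this step also applied to the pooled allele counts.

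The allelic ratio was recomputed from the counts, and RPM used the sum of all listed genes of a library. RPM have exact Poisson intervals, ratios of RPM conditional binomial, allelic ratios Clopper-Pearson and their differences Newcombe intervals, all at 95%. With 1 library per age no test was made. The functions were tested on simulated data. Strands are from GENCODE M21. Fold counts used at least 20 reads in both libraries and a fold of 1.5.

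The 7 genes, the 8 pathway lists and the 11 marker lists were chosen with earlier results of these data known. The text names the 7 genes, from each pathway list the genes past 1.5-fold (at most the 6 largest), its 2 most read and its X-linked genes, the nearest 2 genes by pattern of members with at least 500 reads in both libraries, and the loci that overlap or neighbour a member. Bmp10, Dkk3, Stard10, Kcna5, Kcnj8, Hey1, Nebl, Mecom and Ttn were named outside it with their values known. The same holds for the genes named for their allelic ratio in the closing section. Some genes that this rule names are not reported here. Alternatives covered the scaling, each allele alone, scaling of CAST reads, folds, limits and read minimums. The removal of the loci inside Ank2 was added after the data were seen. Python 3.11.15, pandas 2.3.3, numpy 2.4.6, scipy 1.17.1 and matplotlib 3.10.9 were used.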

Additional observations from a re-analysis of the deposited data

How the results depend on the processing

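Of 72 values recomputed under alternatives for the 3 genes with enough reads and for the counts, 48 stayed within their error or within 1.5 times the count and 24 moved. The log2 ratio of Gja1 (0.48) was 0.26 when scaled by the median of ratios, 0.58 by cardiomyocyte markers, 0.34 for BL6 reads alone and 0.59 for CAST reads alone. That of Ank2 (-0.65) was -0.70 without the 50 most read genes, -0.87 by the median of ratios, -0.55 by cardiomyocyte markers, -0.51 for BL6 and -0.83 for CAST reads alone. Gja5 changed sign, from 0.30 to -0.71, for CAST reads alone, with an interval that held no difference in either case. With CAST reads scaled to an autosomal share of 0.5, the allelic ratio in the adult and aged library was 0.443 and 0.396 for Gja1 and 0.508 and 0.560 for Ank2. Without the loci inside Ank2, chosen after seeing the data, its aged allelic ratio was 0.608. At the lower fold tried, 1 member was higher; at a fold of 2 or with cardiomyocyte scaling, 0 were lower. Members past the allelic ratio limits in the aged library were 2 with scaled CAST reads and 2 with the deposited rounded allelic ratio. Of the pathway genes (14 higher and 12 lower of 73), 7 of 56 were higher and 10 lower with a minimum of 100 reads, 21 of 97 were higher and 19 lower with no minimum, and 8 of 73 were higher by the median of ratios. Marker genes lower were 12 of 87 with no minimum, against 6 with the minimum of 20 reads.

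No paired analysis was possible because there is 1 library per age and the titles carry no replicate numbers. Depth limits Scn10a, Scn4b, Hcn4 and Hcn2, whose few reads leave wide intervals, and no spread between animals can be given for any gene.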

Other observations

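The other genes of the conduction lists also differed in how their reads divided between the alleles. Of 72 autosomal list genes with enough reads in both libraries (at least 20), 10 had an allelic ratio of at least 0.6 in both (Dsg2, Gja3, Popdc3, Scn7a and Sptbn4 among them) and 1 had an allelic ratio of at most 0.4 in both, the inositol trisphosphate receptor gene Itpr2. Of all 12390 autosomal genes with as many reads, 15.4% and 5.21% did so. Popdc3 was at 0.688 and 0.721 and Itpr2 at 0.356 (0.344 to 0.369) and 0.333 (0.317 to 0.349).

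In 13 of the 72 genes the allelic ratio intervals of the libraries did not overlap, Ank2 and Gja1 among them. The share was 11.8% of all 12390 autosomal genes past that minimum of reads. It was 31.7% of the 1175 with at least 1000 reads in both libraries. The share thus depends on depth, and the list genes were not matched to all genes by depth. The desmosomal cadherin gene Dsg2 had an allelic ratio of 0.620 (0.592 to 0.648) in adult nuclei and 0.725 (0.679 to 0.767) in aged nuclei, while its level was 1.73-fold lower in the aged one. Xirp1 went the other way, with 0.473 (0.369 to 0.579) and 0.271 (0.197 to 0.355). Among the transcription factors, Etv1 was at 0.586 (0.543 to 0.628) and 0.455 (0.408 to 0.502), Gata6 at 0.571 and 0.499, and Gata4 at 0.556 and 0.607. These are values of 1 library per age, and no spread between animals bears on them.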
